A study of Mus musculus with 4 samples.

Results

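The osteocalcin genes of the mouse, Bglap, Bglap2 and Bglap3, are 3 of the 31053 genes counted in 1 single-cell RNA-seq library and were chosen by name, not by their values. The library holds pooled cells from 2 tibiae. They came from 1 male mouse at postnatal day 6 (P6), labelled Col10a1Cre;Rosa26-Tdtomato;Irx3 +/Δ;Irx5 +/-, which the labels describe as the heterozygous control. In this animal Cre is driven by Col10a1, the collagen X gene of hypertrophic chondrocytes (HCs), and it switches on the tdTomato reporter of the Rosa26 locus in HCs and in the cells that descend from them. The study's methods write the Irx3 allele as ΔHC, that is, deleted in the HC lineage, whereas 1 copy of Irx5 is lost in all cells. Cells of HC origin and other cells thus also differ in Irx3 dose. The reporter transcript carries the woodchuck post-transcriptional element (WPRE), whose counts stand in for tdTomato because tdTomato itself gave 309 UMIs (unique molecular identifiers, which mark single captured transcripts) against 17780 for WPRE. The 4 sequencing entries hold 1 library, so there is no replicate, no test and no p-value here, and cells are not replicates of the mouse.

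Osteocalcin is a small secreted protein of bone matrix, made by osteoblasts late in their differentiation and widely used as the marker of the mature osteoblast. Vitamin K-dependent carboxylation turns some of its glutamate residues into Gla residues, which bind calcium and the mineral of bone, and an undercarboxylated form is found in the circulation. In the mouse the protein is encoded by a cluster of near-identical genes, of which Bglap and Bglap2 are the bone osteocalcins and Bglap3 is the related gene first described outside bone.

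The cluster lies on chromosome 3 of GRCm38, on the minus strand. In the GENCODE M21 annotation, Bglap3 (ENSMUSG00000074489) spans chr3:88368616-88372743, Bglap2 (ENSMUSG00000074486) spans chr3:88377736-88378699 and Bglap (ENSMUSG00000074483) spans chr3:88383501-88384464. The 3 genes fit in 15849 bases, with 4992 bases between Bglap3 and Bglap2, 4801 between Bglap2 and Bglap, and a pseudogene in each of these gaps (Gm21956 and Gm6821). Paqr6, on the opposite strand, ends 74 bases from Bglap3, and the annotated genes do not overlap. Each gene has 4 exons and a coding sequence of 288 bases. The coding sequences are printed because their likeness limits how counts can be divided between the genes. They were spliced from GRCm38 with GENCODE M21 and read 5′ to 3′ on the minus strand from coding spans chr3:88383635-88384415 (Bglap), chr3:88377870-88378650 (Bglap2) and chr3:88368756-88369536 (Bglap3), and capitals mark the 13 positions at which the 3 genes do not all have the same base.

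Bglap: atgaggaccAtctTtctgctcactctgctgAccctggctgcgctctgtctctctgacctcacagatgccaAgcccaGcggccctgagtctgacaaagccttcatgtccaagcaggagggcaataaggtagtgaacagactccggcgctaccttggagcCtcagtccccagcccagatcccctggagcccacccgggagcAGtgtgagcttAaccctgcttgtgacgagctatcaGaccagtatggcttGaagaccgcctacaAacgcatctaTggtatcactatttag
Bglap2: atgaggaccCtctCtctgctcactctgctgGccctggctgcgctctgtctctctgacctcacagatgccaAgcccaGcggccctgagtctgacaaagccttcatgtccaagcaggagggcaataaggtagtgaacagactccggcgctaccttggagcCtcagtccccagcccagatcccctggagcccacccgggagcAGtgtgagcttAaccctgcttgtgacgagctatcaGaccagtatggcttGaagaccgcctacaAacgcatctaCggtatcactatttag
Bglap3: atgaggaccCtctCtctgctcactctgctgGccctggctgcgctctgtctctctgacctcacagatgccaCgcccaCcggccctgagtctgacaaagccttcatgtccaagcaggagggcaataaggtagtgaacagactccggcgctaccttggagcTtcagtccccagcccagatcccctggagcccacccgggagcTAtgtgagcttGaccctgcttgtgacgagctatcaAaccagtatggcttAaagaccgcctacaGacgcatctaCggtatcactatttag

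Bglap and Bglap2 differed at 4 coding bases (98.6% identity), only 1 of them in the last 150 coding bases. Bglap3 differed from Bglap at 13 bases (95.5%) and from Bglap2 at 9 (96.9%). Single-cell libraries of this kind are read near the 3′ end of the transcript, and over the last 300 bases 49.8% of the 100-base windows of Bglap were its own, against 49.8% for Bglap2 and 100% for Bglap3. With 50-base windows these shares were 19.9%, 15.9% and 76.9%. The split between Bglap and Bglap2 is therefore uncertain, whereas Bglap3 can be told apart over most of its 3′ end.

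The starts of Bglap and Bglap3 also differ. The 250 bases before the start are printed for both from RefSeq on GRCm38.p6, minus strand, because the cells below used these genes separately. The Bglap window is chr3:88384467-88384716, and that of Bglap3, at the most upstream of its annotated starts, is chr3:88372742-88372991. Capitals mark matches to ACCACA (the core letters bound by Runx factors), TATAAA and CCAAT on either strand, and CAGCTG (an E-box) was searched too.

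Bglap: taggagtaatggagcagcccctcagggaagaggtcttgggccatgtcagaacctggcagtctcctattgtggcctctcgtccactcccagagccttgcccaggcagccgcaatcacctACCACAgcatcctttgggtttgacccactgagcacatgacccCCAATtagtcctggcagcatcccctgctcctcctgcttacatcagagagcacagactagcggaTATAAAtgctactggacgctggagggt
Bglap3: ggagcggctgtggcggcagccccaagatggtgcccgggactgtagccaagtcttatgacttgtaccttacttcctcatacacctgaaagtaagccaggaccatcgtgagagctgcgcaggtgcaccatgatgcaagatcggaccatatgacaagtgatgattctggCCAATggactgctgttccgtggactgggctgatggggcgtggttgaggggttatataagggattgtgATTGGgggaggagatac

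The Bglap window held ACCACA at 132 to 127 bases before the start, CCAAT at 90 to 86 and TATAAA at 27 to 22. Of the letters searched, the Bglap3 window held only CCAAT, at 84 to 80 and at 17 to 13 bases before the start. The windows of 2 further annotated Bglap3 starts held CCAAT once each. CAGCTG was found in none of these windows. Only exact letters were searched, so the stretch tatataag near the end of the printed Bglap3 window, which resembles TATAAA, is not marked. Of 32851 promoter windows of the same length, 4614 held ACCACA, 4063 TATAAA, 11120 CCAAT and 4271 CAGCTG. The matches are letters in a window and were not tested as binding sites.

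The gene matrix held 14181 barcodes, of which 8255 passed the limits on genes and on mitochondrial and ribosomal UMIs, with 2623 to 85279 UMIs per cell and a median of 13957. They fell into 29 clusters that were named from marker lists, with the osteocalcin genes kept out of both the lists and the clustering. The mature osteoblast-like cluster of 441 cells was led by Col1a1, Col1a2, Ifitm5, Car3 and Serpinf1, and the immature osteoblast-like cluster of 515 cells by Tnc, Wif1, Mmp9, Mmp13 and Vcan. Both clusters are mixed: when they were clustered again, 5 of 12 sub-clusters were led by genes of chondrocytes, neutrophils, red cells, endothelial cells or B cells. The 3 genes had 176456 UMIs in the cells kept, 99036 for Bglap, 42642 for Bglap2 and 34778 for Bglap3. More than 14 WPRE UMIs were counted in 85 of 102 HC-like cells, where the Cre driver is active, and in 423 of all cells kept.

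Osteocalcin transcripts were concentrated in very few cells. Of the 8255 cells, 5640 (68.3%) had no UMI of any of the 3 genes, 34 cells held 50% of all their UMIs and 127 cells held 90%. The mature osteoblast-like cells carried 92.3% of Bglap UMIs, 90.9% of Bglap2 UMIs and 94.3% of Bglap3 UMIs. In these cells Bglap stood at 9928 UMIs per 1000000 UMIs of the class (CPM), with an exact 95% Poisson interval from 9864 to 9993, Bglap2 at 4210 CPM (4168 to 4252) and Bglap3 at 3562 CPM (3523 to 3601). All intervals here cover counting error only, not the spread between cells or animals. UMIs count transcript ends and are not scaled by length. By UMIs Bglap was the 6th, Bglap2 the 23rd and Bglap3 the 31st gene of the class, and together they made up 1.77% of its UMIs.

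**Figure D1:**
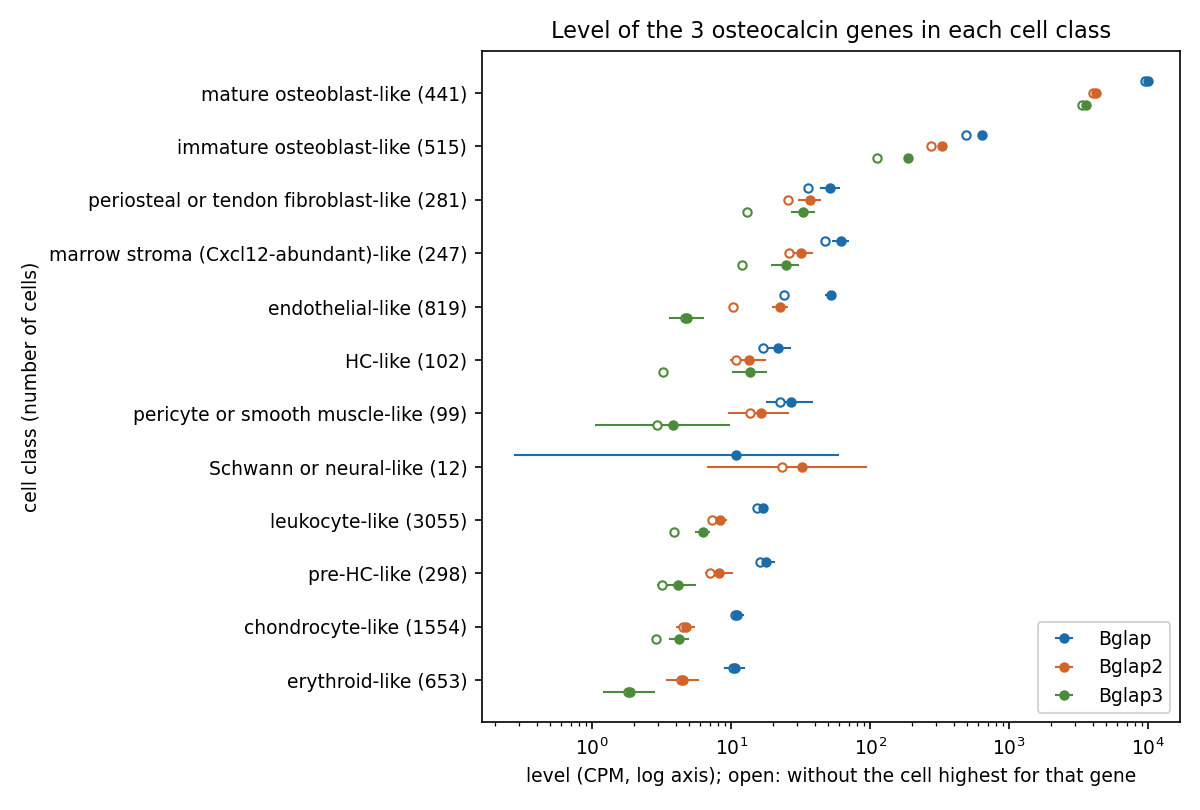
Level of Bglap, Bglap2 and Bglap3 (CPM, log axis) in each marker-defined class, with the number of cells in brackets and exact 95% Poisson intervals as lines; open points leave out the cell highest for that gene. The mature osteoblast-like cells stand at 9928, 4210 and 3562 CPM, the immature osteoblast-like cells at 639, 331 and 189 CPM, and every other named class below 65 CPM for each gene.

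Immature osteoblast-like cells had 639 CPM of Bglap (620 to 659), 331 CPM of Bglap2 (317 to 345) and 189 CPM of Bglap3 (178 to 200). All 3 genes were thus more than 2-fold higher in the mature than in the immature class, as were 389 of the 8406 genes compared (4.63%). Single cells weighed on the lower values. Without the cell with most UMIs of each gene, the immature levels were 487, 275 and 113 CPM, and the mature levels 9566, 4046 and 3368 CPM.

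Outside the osteoblast classes the levels fell by orders of magnitude. Bglap was at 61.5 CPM in the marrow stroma (Cxcl12-abundant)-like cells, 51.9 CPM in endothelial-like cells, 51.6 CPM in periosteal or tendon fibroblast-like cells, 26.9 CPM in pericyte or smooth muscle-like cells and 21.6 CPM in HC-like cells. It was at 17.8 CPM in pre-HC-like, 16.97 in leukocyte-like, 11.1 in chondrocyte-like and 10.6 CPM in erythroid-like cells. The intervals of the stroma-like, endothelial-like and fibroblast-like cells overlap, and so do those of the HC-like, pre-HC-like and leukocyte-like cells. The endothelial value rested on 1 barcode with 280 Bglap UMIs that was marked as a doublet, and it was 23.9 CPM without it. The fibroblast-like value joins unlike clusters. Bglap was at 105 CPM in the 119 cells led by Aspn and Postn and at 19.1 CPM in the 162 cells led by Mfap5 and Tnmd. Without 1 cell of 49 Bglap UMIs the fibroblast-like value was 35.6 CPM. The 12 Schwann or neural-like cells had 4 UMIs of the 3 genes. A set of 179 cells without a name had 212 CPM of Bglap, but 1068 of its 1128 UMIs came from 1 barcode marked as a doublet, and 11.4 CPM remained without it.

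Because cells differ in depth, detection was compared after thinning every cell to 5000 UMIs. At that depth 58.5% of 441 mature osteoblast-like cells had a Bglap UMI (73.0% unthinned), 54.0% a Bglap2 UMI (67.3%) and 29.7% a Bglap3 UMI (38.5%). Among 502 immature osteoblast-like cells the shares were 35.7%, 29.5% and 14.5%. In blood cells, which should lack the transcripts, they were 6.96%, 3.71% and 1.84% of 3476 cells. Bglap3 was therefore found in far fewer mature cells than Bglap2, although its CPM was 3562 against 4210.

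Within the mature osteoblast-like class the output per cell spanned the whole range. No UMI of the 3 genes was counted in 81 of the 441 cells (18.4%), 131 cells had 1 to 9, 67 had 10 to 99, 104 had from 100 to under 1000 and 58 had 1000 or more. Those 58 cells (13.2%) carried 73.0% of the osteocalcin UMIs of the class. The 81 cells without osteocalcin were not shallow, with a median of 17617 UMIs against 17590 in the cells with 1 to 9, 19215 in those with 100 to under 1000 and 24986 in the highest. They also carried osteoblast transcripts. Col1a1, the main bone collagen chain, was at 41162 CPM in them and 81567 CPM in the 58 highest cells. Spp1, which encodes osteopontin, was also lower in them, at 8372 and 17046 CPM. So was Dmp1, a matrix protein of osteocytes, at 128 and 290 CPM, with 738 CPM in the cells with 10 to 99. Ifitm5, a membrane protein of mineralizing osteoblasts, was higher in them, at 861 and 613 CPM. Ibsp, which encodes bone sialoprotein, stood at 12317 CPM in the cells without osteocalcin and 1681 CPM in the highest cells, and Mmp13, the collagenase of late HCs and osteoblasts, at 1500.2 and 87.8 CPM. Osteocalcin and Ibsp levels therefore ran in opposite directions across the class. These cells also differed in WPRE: 56.8% of the cells without osteocalcin and 8.62% of the highest cells had more than 14 WPRE UMIs. Whether the opposite run holds apart from WPRE was not tested.

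With all cells counted, the share of Bglap2 spanned a narrower range over the classes than that of Bglap3. This did not hold without the highest cell of each class, as given below. In mature osteoblast-like cells Bglap2 made up 29.8% of the Bglap and Bglap2 UMIs (exact 95% Clopper-Pearson interval 29.5 to 30.03), and in immature osteoblast-like cells 34.1% (32.9 to 35.3), and these intervals do not overlap. It was 29.7% in erythroid-like, 29.8% in chondrocyte-like, 30.2% in endothelial-like, 31.6% in pre-HC-like, 33.1% in leukocyte-like, 34.2% in stroma-like and 38.3% in HC-like cells. The periosteal or tendon fibroblast-like cells were at 41.6% (35.6 to 47.7), on 267 UMIs. Among 163 single cells with at least 100 UMIs of Bglap and Bglap2, the median Bglap2 share was 30.2% and the range 14.9% to 62.1%. The standard deviation over these cells was 7.99 percentage points where counting error alone gives 2.50, and 5 of the cells had more Bglap2 than Bglap.

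**Figure D2:**
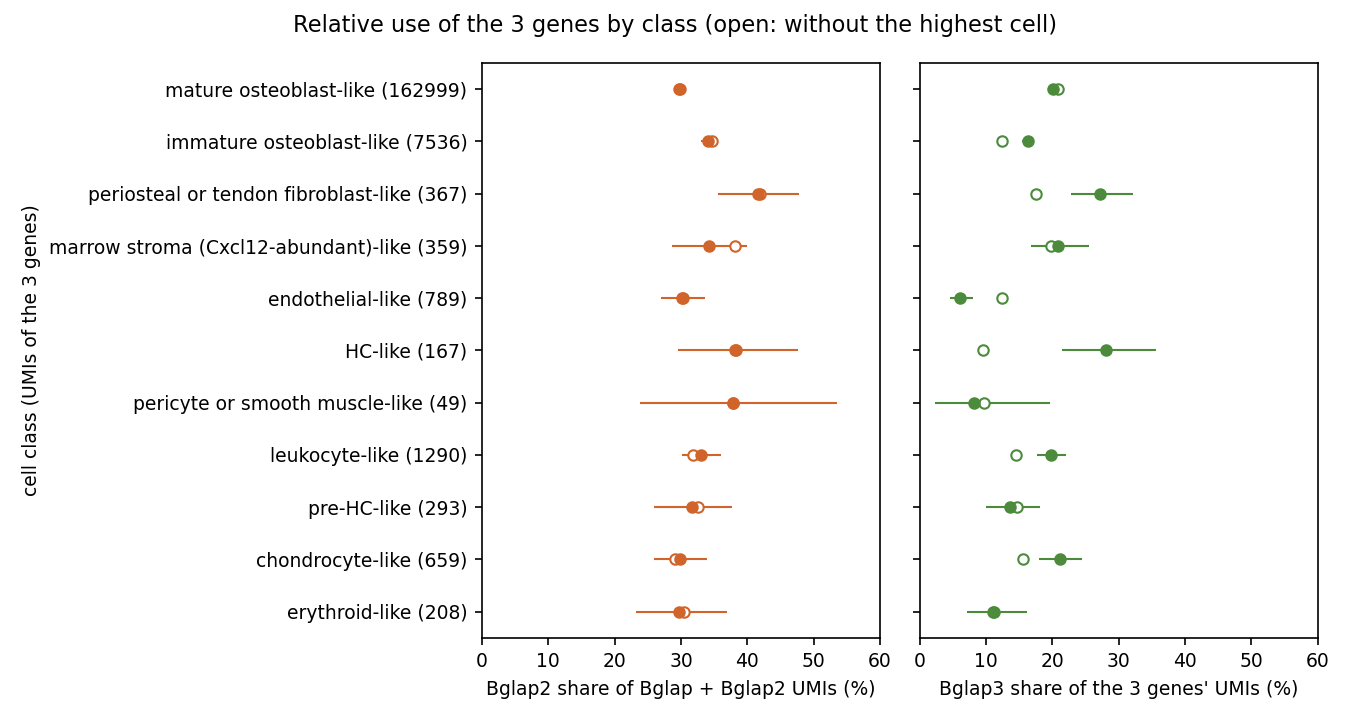
Share of Bglap2 in the UMIs of Bglap and Bglap2, and of Bglap3 in the UMIs of the 3 genes, by class (percent, filled points with exact 95% intervals; open points leave out the cell with most osteocalcin; UMIs of the 3 genes in brackets). The Schwann or neural-like cells, with 4 UMIs, and the cells without a name are not drawn. In the classes drawn the filled points run from 29.7% to 41.6% for Bglap2, and from 6.08% in endothelial-like to 28.1% in HC-like cells for Bglap3. The open points run from 29.1% to 41.8% for Bglap2 and from 9.48% to 20.8% for Bglap3, so the range of Bglap2 is then no narrower.

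Bglap3 was less even when all cells were counted. It made up 20.1% of the UMIs of the 3 genes in mature osteoblast-like cells (19.9 to 20.3), a mean over cells with and without the gene, and 16.3% in immature osteoblast-like cells. The share was 27.3% in fibroblast-like, 28.1% in HC-like, 21.1% in chondrocyte-like, 20.9% in stroma-like, 19.8% in leukocyte-like, 13.7% in pre-HC-like, 11.1% in erythroid-like and 6.08% in endothelial-like cells. Several of these values came from 1 cell. Leaving out the cell with most osteocalcin moved the share to 9.48% in HC-like, 17.5% in fibroblast-like, 15.7% in chondrocyte-like, 14.6% in leukocyte-like, 12.4% in endothelial-like and 12.4% in immature osteoblast-like cells, but only to 20.8% in the mature class.

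Cell by cell, the Bglap3 share fell into 2 separate ranges. Among 255 cells with at least 20 UMIs of Bglap and Bglap2, the Bglap3 share was under 1% in 132 cells, 1 to 3% in 1 cell, 3 to 10% in 2 cells and 10% or more in 120 cells. The last were spread around a median of 39.8% and reached 88.4%. Of the 133 cells under 3%, 105 had no Bglap3 UMI and none had more than 6, although their Bglap level was 21033 CPM against 13311 CPM in the 120 cells with Bglap3. Summed over the 3 genes, the levels were 30006 CPM without and 33063 CPM with Bglap3. The Bglap2 share was 29.9% (29.6 to 30.2) and 30.04% (29.6 to 30.5), so these cells differed in Bglap3 and not measurably in how Bglap and Bglap2 were divided. Both kinds were found in both osteoblast classes, 96 with and 109 without among the mature cells and 19 with and 15 without among the immature cells.

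**Figure D3:**
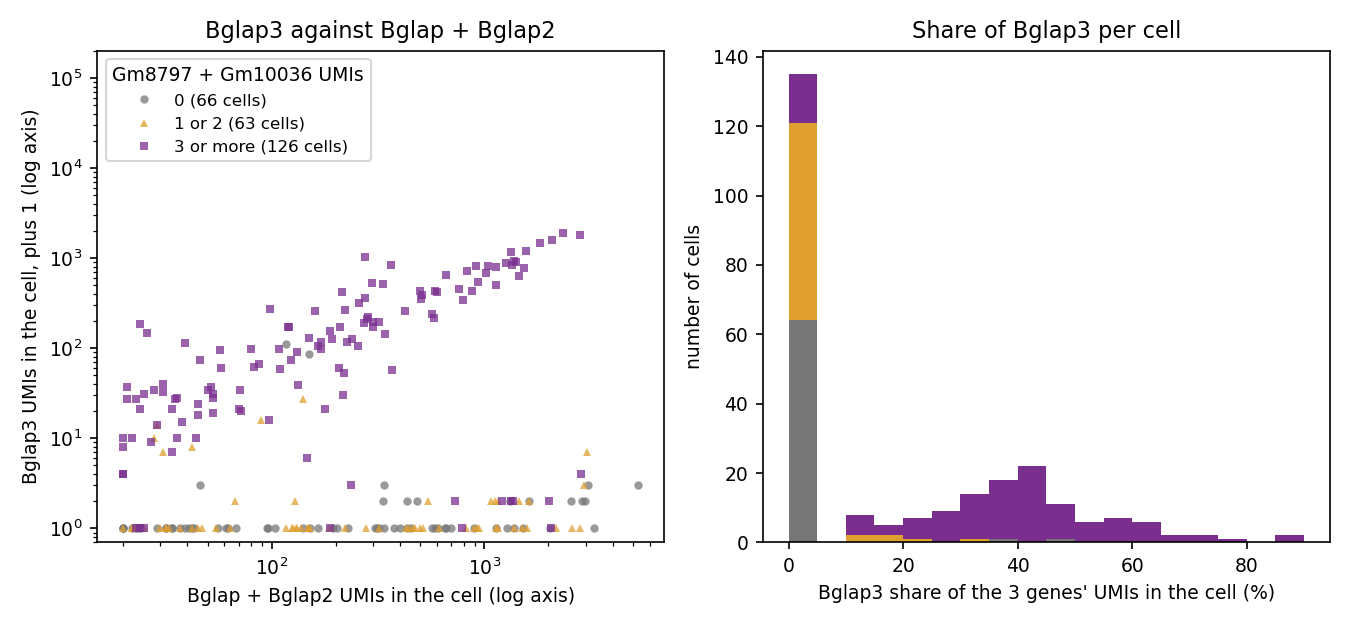
Left, Bglap3 UMIs against the UMIs of Bglap and Bglap2 in the 255 cells with at least 20 of the latter (log axes, 1 added to Bglap3 so that zeros show). Right, the number of those cells by Bglap3 share (percent). Colours give the UMIs of Gm8797 and Gm10036 in the cell (grey 0, orange 1 or 2, purple 3 or more). The cells form 1 band near 40% and 1 band near 0, with 2 cells between 3% and 10%.

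Conversely, Bglap3 was seldom found alone. Of 108 cells with at least 20 Bglap3 UMIs, 100 had at least 20 UMIs of Bglap and Bglap2, and the other 8 had at most 66 Bglap3 UMIs. The genes that separated cells with Bglap3 from cells without it were then looked for over all genes. Of 7427 genes compared, 37 (0.498%) were at least 2-fold higher in the cells with Bglap3, Bglap3 among them by choice. The genes named next were chosen after their values had been seen. Gm10036, annotated as a processed pseudogene, was at 141 CPM in the cells with Bglap3 and 12.8 CPM in those without, and Gm8797 at 226 and 36.0 CPM. Tmcc2 was at 50.9 and 6.55 CPM, and Cd74, the invariant chain of antigen-presenting cells, at 59.6 and 13.8 CPM. Rpl29, a protein of the large ribosomal subunit, went the other way, at 815 against 1470 CPM.

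These other genes split the library far beyond the osteoblasts. The cells with at least 20 UMIs of Bglap and Bglap2 were counted, leaving out the 2 with a Bglap3 share of 3 to 10%. Of those with 3 or more UMIs of Gm8797 and Gm10036, 112 of 125 had Bglap3 (89.6%). It was 6 of 63 with 1 or 2 (9.52%) and 2 of 65 with none (3.08%). Gm8797 and Gm10036 were picked because they differed between these same cells. The counts therefore follow from that choice and do not test a link. The mature cells given next include many of the same cells. Among mature cells of at least 8000 UMIs, Bglap3 was at 7089 CPM in the 209 cells with 3 or more, 26.9 CPM in the 103 cells with 1 or 2 and 95.5 CPM in the 120 cells with none, while Bglap was at 8537, 10446 and 12469 CPM. In chondrocyte-like cells, which have almost no osteocalcin, Rpl29 was at 1269 CPM in the 499 cells with 3 or more UMIs of Gm8797 and Gm10036 and 2264 CPM in the 683 cells with none. The same side was lower in leukocyte-like (1051 and 1756 CPM), erythroid-like (1038 and 1722 CPM) and endothelial-like cells (986 and 1698 CPM). The sides were set by UMI counts and also differed in depth. Median UMIs per cell were 22109 and 19049 in chondrocyte-like and 16424 and 13484 in leukocyte-like cells. They were 21525 and 13009.5 in erythroid-like cells, on 77 and 398 cells, and 13484 and 11966.5 in endothelial-like cells. The labels give 1 male mouse, and both sides of the split carried male transcripts: 4 genes of the Y chromosome summed to 139 CPM in the 2213 cells with 3 or more and 150 CPM in the 2854 cells with none, and Xist was at 0.281 and 0.140 CPM. What separates these cells was not tested, and neither was whether all of them came from 1 animal. In the mature cells the Bglap3 share was 36.9% with 3 or more, 0.180% with 1 or 2 and 0.534% with none. The Bglap3 level and share of the mature class thus depend on how many of its cells lie on each side. Chondrocyte-like cells went the other way, at 3.06 CPM of Bglap3 with 3 or more and 6.23 CPM with none. These are levels of the size seen in blood cells, and 1 cell held 44 of the 139 Bglap3 UMIs of that class.

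In blood cells, a type that does not make osteocalcin, the 3 genes were found at a low level. The 3708 leukocyte-like and erythroid-like cells had 15.5 CPM of Bglap, 7.49 CPM of Bglap2 and 5.26 CPM of Bglap3, which is 0.156%, 0.178% and 0.148% of the mature osteoblast-like level. Together they were at 28.2 CPM (26.8 to 29.7), or 0.160% (0.152 to 0.168) of that level. On this scale the other bone transcripts compared lay higher. Ibsp was at 0.269%, Ifitm5 at 0.311%, Col1a2 at 0.375%, Dmp1 at 0.402%, Col1a1 at 0.436%, Phex at 0.478%, Sparc at 0.705% and Spp1, which encodes osteopontin and is also made by macrophages, at 1.91%. This order depends on the limits on cells: the osteocalcin value was 0.315% with a minimum of 1000 genes and 0.317% with a limit of 20% mitochondrial UMIs, and the other transcripts were not recomputed under these.

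**Figure D4:**
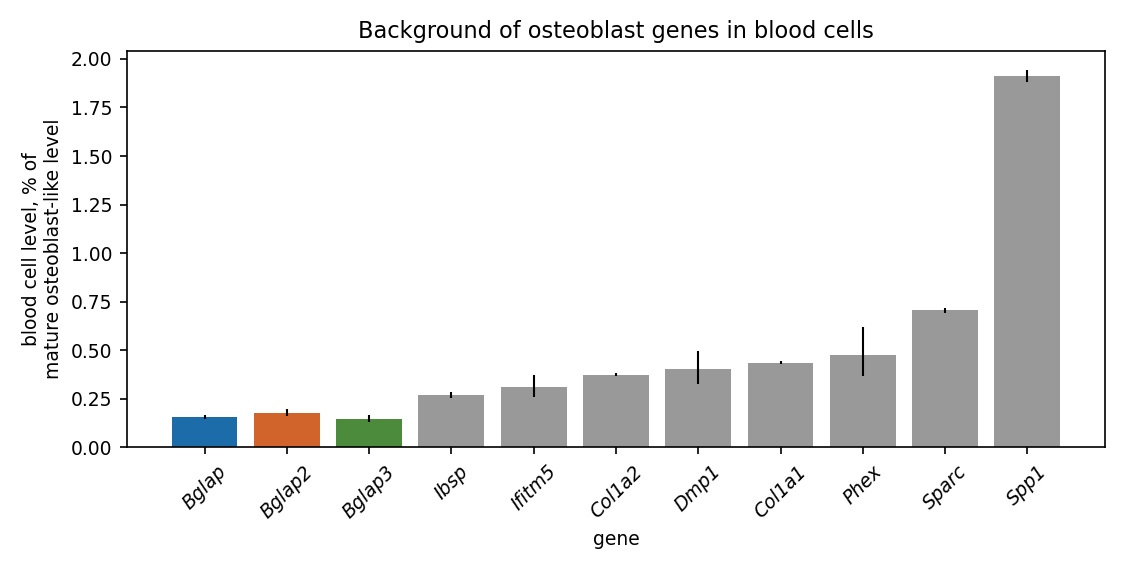
Level in blood cells as a percent of the level in mature osteoblast-like cells, for the 3 osteocalcin genes and 8 other bone transcripts (bars from 0, with 95% intervals). The 3 genes lie between 0.148% and 0.178%, below Ibsp at 0.269% and Spp1 at 1.91%.

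Of the 3708 blood cells, 2831 had no UMI of the 3 genes, 707 had 1, 152 had 2 to 4 and 14 had 5 to 19. The 4 cells with 20 or more held 329 of the 1498 UMIs, and 2 of them were marked as doublets. Across the 12 blood clusters the summed level ran from 10.4 to 66.2 CPM. The highest, led by Prss34 and Mcpt8 of basophils, fell to 21.8 CPM without 1 cell of 206 UMIs. In blood cells Bglap2 held 32.6% of the pair (29.9 to 35.3) and Bglap3 18.6% of the 3 genes (16.7 to 20.7). Both intervals overlap those of the mature osteoblast-like cells. Without that cell of 206 UMIs the Bglap3 share was 14.01%. Chondrocyte-like cells, at 20.03 CPM summed, lay under this blood level. Pre-HC-like cells were at 30.2 CPM (26.8 to 33.9) and HC-like cells at 48.7 CPM (41.6 to 56.6). The HC-like value was 34.3 CPM without its highest cell, which had 51 UMIs of the 3 genes and 57 of WPRE. Levels of the size seen in blood cells are read as background.

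Outside the osteoblast classes, 16 cells had 20 or more UMIs of the 3 genes. They were 4 leukocyte-like, 3 stroma-like, 2 endothelial-like, 2 fibroblast-like, 2 HC-like, 1 chondrocyte-like and 1 pre-HC-like cell, and 1 cell of the unnamed set. Of these, 5 were marked as doublets.

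Cells with many WPRE UMIs had far less osteocalcin than other mature osteoblast-like cells. Origin and Irx3 dose cannot be told apart in this comparison. The study took cells with over 14 WPRE UMIs as HC-derived, and by that cutoff 151 of the 441 cells were HC-derived and 290 were not. Bglap was at 2470 CPM in the former and 14189 CPM in the latter, Bglap2 at 1053 and 6013 CPM, and Bglap3 at 329 and 5408 CPM. On the log2 scale with 1 CPM added, the differences were -2.52 (-2.55 to -2.49), -2.51 (-2.56 to -2.46) and -4.03 (-4.12 to -3.95). The 3 genes summed to 3852 and 25610 CPM, a difference of -2.73 (-2.76 to -2.71), or of -3.08 without the HC-derived cell with most osteocalcin. Of 7313 genes compared, 79 (1.08%) were at least 2-fold lower in the HC-derived cells, and all 3 members were among them. Ordered from the lowest ratio, Bglap3 was 1st, Bglap 9th and Bglap2 10th, beside Rgs5, Col3a1, Igfbp6, Sost, Prtn3, Postn and Elane.

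The difference lay in how many cells had high counts. By the sum of the 3 genes, the median HC-derived cell stood at 70.4 CPM and the median other cell at 5210 CPM. At least 100 UMIs of the 3 genes were found in 15 of 151 HC-derived cells (9.93%) and in 147 of 290 others (50.7%). Depth was alike, with medians of 19018 and 18581 UMIs per cell. Bglap2 held 29.9% and 29.8% of its pair, whereas Bglap3 held 8.54% and 21.1% of the 3 genes. Bglap3 use was also counted in cells with at least 20 UMIs of Bglap and Bglap2, leaving out the 2 with a Bglap3 share of 3 to 10%. With over 14 WPRE UMIs, 8 of 26 such cells had Bglap3 (30.8%), and 112 of 227 others had it (49.3%). Cells of the same mouse are not replicates, so these shares are descriptions, and whether they differ was not tested.

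**Figure D5:**
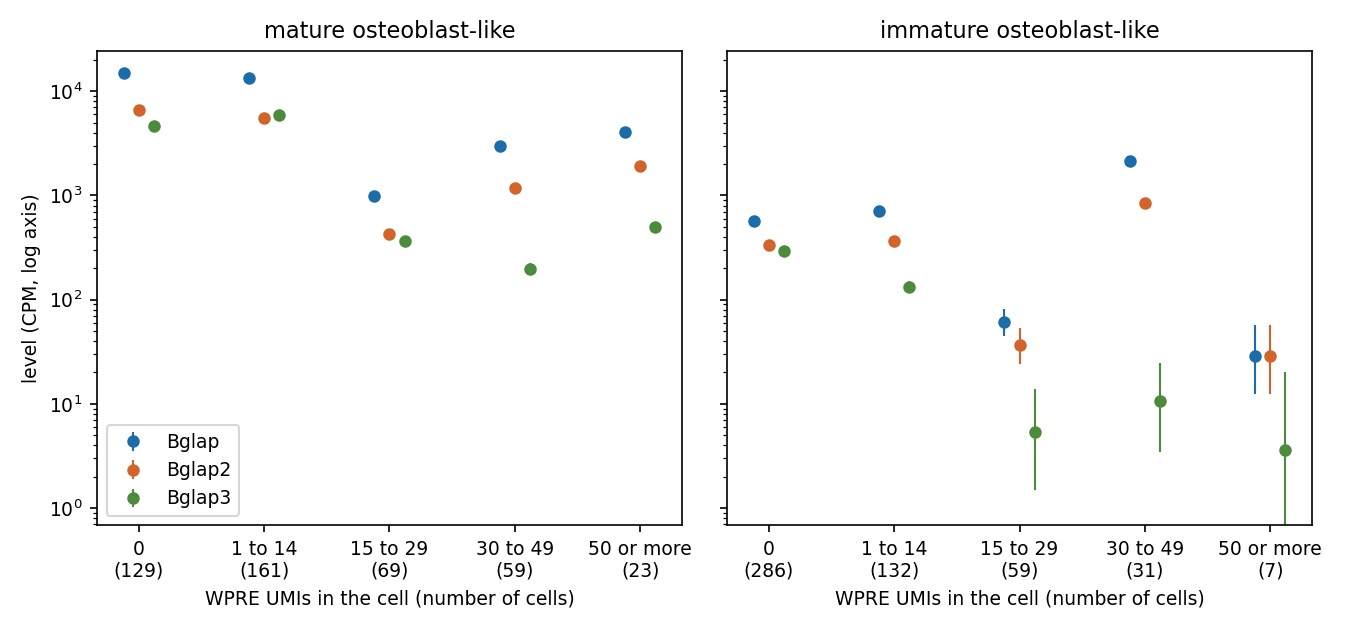
Level of each gene (CPM, log axis, 95% Poisson intervals) by WPRE UMIs per cell, in mature (left) and immature (right) osteoblast-like cells, with the number of cells under each bin. In mature cells all 3 genes are lower in each bin above 14 WPRE UMIs than in both bins at or below it, with 2845 of the 5755 UMIs at 30 to 49 in 1 cell, while in immature cells Bglap and Bglap2 at 30 to 49 rest on 1 cell of 1379 UMIs.

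The level differed most across the cutoff. Mature cells with no WPRE UMI (129 cells) stood at 26378 CPM of the 3 genes and those with 1 to 14 (161 cells) at 25066 CPM. Cells with 15 to 29 WPRE UMIs (69 cells) were at 1779 CPM, those with 30 to 49 (59 cells) at 4370 CPM and those with 50 or more (23 cells) at 6508 CPM. Single cells weighed on the bins above the cutoff: 1 cell held 921 of 2286 UMIs at 15 to 29 and 1 cell 2845 of 5755 at 30 to 49. Without the highest cell of each bin, the levels were 1079, 2264 and 4966 CPM, against 25252 and 23751 CPM in the bins at or below the cutoff.

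Other genes of bone cells differed to varying degrees. Sost, the Wnt inhibitor made by osteocytes, was at 0.597 CPM in the HC-derived and 11.8 CPM in the other mature cells, on 2 UMIs in the former. Col3a1, a collagen chain of fibrous tissue, was at 48.1 and 647 CPM (-3.72), Postn, the matrix protein periostin, at 18.8 and 142 CPM (-2.86), and Mepe, a matrix protein of osteocytes, at 3.29 and 7.68 CPM (-1.02). Between HC-derived and other mature cells Col1a1 differed by -0.24, Col1a2 by -0.16, Sparc by -0.08, Spp1 by -0.61, Dmp1 by -0.47 and Phex by -0.39 on the log2 scale. Ifitm5 differed by 0.12, Ibsp by 0.95 and Mmp13 by 1.85, that is, these were higher in the HC-derived cells. Runx2 and Sp7, transcription factors that osteoblast differentiation requires, differed by 0.00 and -0.15. Transcripts of blood cells in the same class moved too. Of the 7 blood genes listed, Elane (3.0 and 24.6 CPM) and Cd79a (3.6 and 13.1 CPM) were over 2-fold lower in the HC-derived cells and none was over 2-fold higher. Hbb-bs was at 3732 and 5663 CPM, Hba-a1 at 1292 and 1842, Alas2 at 11.9 and 21.8, S100a8 at 314 and 316, and Ptprc at 8.7 and 6.3 CPM. The osteocalcin difference was -2.76 when the sub-clusters led by genes of other cell types were left out.

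HC-derived cells were not spread evenly over the sub-clusters. In the sub-cluster led by Serpinf1, Col1a1 and Cpz, 28 of 155 cells were HC-derived and Bglap was at 21051 CPM, Bglap2 at 8908 CPM and Bglap3 at 7237 CPM. In the sub-cluster led by Prss50 and Nupr1, 65 of 106 cells were HC-derived and the same genes were at 795, 344 and 559 CPM. Within each of them the summed level was still lower in the HC-derived cells, at 12799 against 43119 CPM in the first (log2 difference -1.75) and 956 against 2965 CPM in the second (-1.63). The 17 cells of the osteocyte-like sub-cluster, led by Pdpn, Dmp1 and Phex, had 4101 CPM of Bglap, 2180 CPM of Bglap2 and 1349 CPM of Bglap3. The difference was also present on each side of the split by Gm8797 and Gm10036 in mature cells of at least 8000 UMIs, at -2.39 with 3 or more UMIs, -2.28 with 1 or 2 and -6.88 with none, and HC-derived cells made up 33.5%, 39.8% and 33.3% of these cells.

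In immature osteoblast-like cells the comparison turned on 1 cell. Summed over the 3 genes, the 97 HC-derived cells stood at 1022 CPM and the 418 others at 1199 CPM, a log2 difference of -0.23. One HC-derived cell held 1379 of their 1523 UMIs, and without it the level was 98.8 CPM and the difference -3.59. Bglap alone was higher in the HC-derived cells with that cell (722 and 614 CPM, 0.23) and lower without it (48.0 CPM, -3.65). Bglap3 was at 6.71 CPM in the HC-derived and 243 CPM in the other cells, a difference of -4.98. One of the other cells held 498 of their 1218 Bglap3 UMIs, and without it they were at 144 CPM. The immature groups also lay in different sub-clusters: 52 of the 97 HC-derived cells and 69 of the 418 others were in the sub-cluster led by Mmp9 and Lpl, which has little osteocalcin. Within it the 3 genes were higher in the HC-derived cells, at 136 against 70.8 CPM (0.94, 0.44 to 1.43). In stroma-like cells the 46 HC-derived cells had 25.3 CPM of the 3 genes and the other cells 141 CPM (-2.43, -3.15 to -1.71), on 15 UMIs in the former, a level within the range of the blood clusters. In HC-like cells the 85 cells above the cutoff and the 17 below did not differ within counting error, at 48.9 and 47.0 CPM (0.05, -0.65 to 0.76).

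The 4 sub-clusters that hold most immature osteoblast-like cells differed in all 3 genes. Bglap was at 48.5 CPM in the 121 cells led by Mmp9 and Lpl, at 501 CPM in the 190 cells led by Ogn and Aspn, which also carry genes of fibroblasts, and at 1666 CPM in the 103 cells led by Apoa4 and Spp1, of which 52 belong to the mature class. Bglap2 stood at 47.8, 278 and 909 CPM, and Bglap3 at 7.35, 85.2 and 498 CPM. A further 103 cells led by genes of cell division (Birc5, Pclaf and Cdc20) had 1223, 510 and 345 CPM, and 6 of them belong to the mature class. Of their 1994 Bglap UMIs 1006, and of their 832 Bglap2 UMIs 373, came from 1 HC-derived cell.

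Across the 29 clusters Bglap and Bglap2 varied together, with a Pearson correlation of 0.97 on log2 CPM, against 0.80 for Bglap with Bglap3 and 0.77 for Bglap2 with Bglap3. The clusters share 1 library, and these values are descriptions. Among 7651 genes, those whose pattern over the clusters was most like the mean of the members were Slc36a2 (0.85), Dmp1 (0.83), Col13a1 (0.82), Lipc (0.81), Ifitm5 (0.80), Car3 (0.79), Col22a1 (0.78), Enpp6 (0.77), Col1a1 (0.75) and Col1a2 (0.75). Slc36a2 is an amino acid transporter, Dmp1 a matrix protein of osteocytes, and Lipc hepatic lipase. Of these, Slc36a2, Dmp1, Ifitm5, Car3, Col22a1 and Col1a1 also served to name the osteoblast and osteocyte classes.

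The genes that act on osteocalcin were then read from lists, which were chosen with earlier results of these data known. They are given as counts of genes at least 2-fold apart between the mature and immature classes. Of all 8406 genes compared, 389 were higher and 1481 lower, with a median log2 difference of -0.48. Of 8 genes of the vitamin K cycle and gamma-carboxylation, 5 reached 10 CPM, and 2 were higher in the mature class and none lower (median 0.24). They were Ggcx, the gamma-glutamyl carboxylase itself, at 30.5 and 11.2 CPM, and Vkorc1, which regenerates reduced vitamin K, at 375 and 128 CPM. Furin, a protease that cleaves propeptides, was at 67.1 and 71.5 CPM.

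Other Gla proteins went the opposite way. Of 15 listed, 7 reached 10 CPM, and 6 were lower in the mature class and 1 higher (median -1.59). Mgp, the matrix Gla protein that restrains mineralization, was at 134 CPM in the mature and 343 CPM in the immature class, Gas6, a ligand of the TAM receptors, at 7.60 and 129 CPM, and Pros1, protein S, at 49.8 and 156 CPM. Ucma, the Gla-rich protein of cartilage, was the one that was higher (48.6 and 10.3 CPM). Chondrocyte-like cells had 1778 CPM of it and leukocyte-like cells 25.2 CPM, and the mature class included 18 cells of a sub-cluster led by cartilage genes. Of the 4 genes listed as receptors or as Esp, 3 were matched by symbol, and of these Gprc6a and Gpr158 had no UMI in the osteoblast classes and Gpr37 was at 2.06 CPM in the mature class.

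Of 18 transcription factors and cofactors known to act on the osteocalcin promoter, 16 reached 10 CPM. Only Dlx3 was higher (12.3 and 3.69 CPM), while Dlx6, Tle1 and Hey1 were lower and 12 were less than 2-fold apart (median -0.45). Runx2 was at 149 and 203 CPM and Sp7 at 100.01 and 61.8 CPM. Of 19 late osteoblast and mineral genes, some of which named the class, 15 reached 10 CPM, and 12 were higher and 1 lower (median 3.38), the latter Alpl, the alkaline phosphatase of bone, at 481 and 1112 CPM. The neighbours of the cluster on chromosome 3 did not follow it. Of 9, 6 reached 10 CPM and none was 2-fold higher in the mature class (median -0.52). Pmf1 was at 23.9 and 41.8 CPM, Cct3 at 124 and 164 CPM, and Smg5 was 2-fold lower at 16.6 and 35.2 CPM.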

How the data were processed

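The authors deposited a UMI count for each gene in each barcode, not normalized, and a count matrix of 98 exogenous sequences over 6794880 barcodes, WPRE and tdTomato among them. They were made with Cell Ranger 3.1.0 on mm10 (GRCm38) with the reporter sequences added, and Seurat 3 is also named in the submitters' processing notes. The annotation release: not given in the sources used here.

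Cells with at least 1600 genes, the study's minimum, at most 10% mitochondrial UMIs and at most 50% ribosomal protein UMIs were kept (8255 of 14181 barcodes). They were clustered with scanpy 1.11.5 (2000 variable genes without the members, Pth1r and the Mmp genes, 30 components, 20 neighbours, resolution 1, seed 1, with sub-clusters at 0.6). Clusters were named from 24 marker lists by genes among the 10 leading ones. Where no marker was among these, the list with the highest mean standardized level gave the name. The study kept fewer cells, and its classes may not match these rebuilt ones. Scrublet marked 588 barcodes as doublets (4.15%), and these were kept. Exact intervals at 95% came from scipy 1.17.1 under Python 3.11.15, and shares of cells from thinning to 5000 UMIs. Log2 ratios have 1 CPM added, and genes with 10 CPM in either group were compared. The calling of known fold changes and the Poisson interval were tested on simulated data, and the interval of the log2 ratios was not. The members, the lists and the rule for named genes (the members, the listed genes and the 10 most alike) were chosen with earlier results of these data known.

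Alternatives were other limits on cells, clustering settings, doublets, scales and WPRE cutoffs, and those restricted to subsets of cells were chosen after seeing the data. Sequences came from GRCm38, with GENCODE M21, and from RefSeq. Depth per cell was 2623 to 85279 UMIs.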

Additional observations from a re-analysis of the deposited data

Results flagged for a closer look

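The barcodes that did not pass the limits on cells, which enter none of the comparisons, carried the 3 genes at 354 CPM. This lay above the 28.2 CPM of blood cells and below the 1286 CPM of all cells kept. The barcodes left out held 7453 UMIs of the 3 genes (4.05% of all), at 207 CPM for Bglap, 109 CPM for Bglap2 and 39.0 CPM for Bglap3. Of these UMIs, 5104 lay in 46 barcodes with 20 or more, and 113 CPM remained without them. The level was 270 CPM in the 5476 barcodes with too few genes and 740 CPM in the 450 left out for their mitochondrial or ribosomal share. The source of these transcripts was not tested.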

How the results depend on the processing

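The 5 main values of the mature osteoblast-like cells were recomputed under the alternatives that apply to each, from 14 to 22 a value. Only the difference by WPRE has a direction that could change. The Bglap2 share moved least: it stayed within its 95% interval of the reported 29.8% in 12 of 15 alternatives and ran from 29.3% to 30.2%. The difference by WPRE was negative in all 22 alternatives, from -6.86 to -0.85. The Bglap level ran from 8513 to 12343 CPM over 16 alternatives, and the blood level from 0.119% to 0.317% of the mature level over 16. The Bglap3 share ran from 0.221% to 36.9% over 14. In the following, each setting is given with those of the Bglap level (CPM), the Bglap2 share, the Bglap3 share, the blood level as a percent of the mature level (blood) and the log2 difference by WPRE that moved beyond counting error.

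A minimum of 1000 genes per cell gave 10318 CPM and blood 0.315%, and a minimum of 2000 genes 10020.4 CPM, Bglap3 20.5%, blood 0.265% and -2.66. A limit of 5% mitochondrial UMIs gave 10376 CPM, Bglap2 29.3%, Bglap3 17.1%, blood 0.138% and -2.26, and a limit of 20% gave 9609 CPM, blood 0.317% and -2.82. Resolution 0.6 gave 10717 CPM, Bglap3 20.3%, blood 0.151% and -2.81, and resolution 1.5 gave 10211 CPM, Bglap3 20.3% and blood 0.141%. With more variable genes the values were 11413 CPM, Bglap3 20.7%, blood 0.252% and -3.06, and with the members among the variable genes 10975 CPM, Bglap3 20.5%, blood 0.265% and -2.78. Without barcodes marked as doublets they were 11264 CPM, Bglap3 20.7%, blood 0.119% and -3.02. The mean of single-cell levels gave 8698 CPM, blood 0.217% and -2.93, and scaling to UMIs other than the 3 genes, mitochondrial and haemoglobin genes 10720.5 CPM and -2.77. The difference by WPRE was -0.85 for any WPRE UMI against none, -2.05 for more than 29 and -1.98 for any tdTomato UMI against none. The cause of these shifts was not tested.

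The remaining alternatives were chosen after seeing the data. Cells with 3 or more UMIs of Gm8797 and Gm10036 gave 8513 CPM, Bglap2 29.4%, Bglap3 36.9%, blood 0.185% and -2.39. Those with none gave 12343 CPM, Bglap3 0.543%, blood 0.141% and -6.86, and those with 1 or 2 gave 10385 CPM, Bglap2 30.2%, Bglap3 0.221%, blood 0.180% and -2.27, so the Bglap3 share of 20.1% describes neither side. Without the sub-clusters led by genes of other cell types the values were 10667 CPM, Bglap3 19.7%, blood 0.149% and -2.76. Without the highest cell of each class they were 9566 CPM, Bglap3 20.8%, blood 0.142% and -2.69. Within the sub-clusters led by Prss50 and Serpinf1 the difference was -1.63 and -1.75.

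With 1 library of 1 mouse, there was no replicate to leave out, and nothing here measures variation between animals. No paired analysis was possible because there is only 1 group. Depth limits the classes with few UMIs, such as the 4 UMIs of the Schwann or neural-like cells. The likeness of Bglap and Bglap2 limits their split, and their level against that of Bglap3, at any depth.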
